A study of Mus musculus with 2 samples.

Results

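The genes described here are 9 that handle iron, haem and oxidative stress: Fth1 and Ftl1, the heavy and light chains of ferritin, Slc11a1, an iron and manganese transporter of the phagosome, Hmox1, the inducible haem oxygenase, Nfe2l2, which encodes the transcription factor NRF2, Srxn1 (sulfiredoxin), Prdx5 (a peroxiredoxin), Msrb1 (a methionine sulfoxide reductase) and Txnip, which binds thioredoxin. They were chosen by symbol as a list, and all 9 were found among the 32285 genes of the files. They were measured by droplet single-cell RNA sequencing of mouse blood in 2 libraries, 1 of WT mice and 1 of APP/PS1 mice, a transgenic mouse model of Alzheimer's disease. Each library came from 3 female mice of 7 months of age whose cells were pooled after neutrophils had been enriched by depletion of other blood cells, and the labels give no treatment for either group. The WT mice carry no transgene. Because a genotype is 1 pool and 1 library, genotype, pool and library cannot be told apart, no test was made, and intervals cover counting error only.

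Neutrophils kill microbes with superoxide and the oxidants made from it, and they carry systems that keep those oxidants from harming the cell. Ferritin is a hollow shell of heavy and light chains in which the heavy chain oxidizes iron for storage, so that less free iron is left to catalyse radical formation. Haem oxygenase opens the haem ring and releases iron, biliverdin and carbon monoxide. NRF2 is held by KEAP1 and degraded until oxidants or electrophiles free it to switch on genes such as Hmox1, Srxn1, Txnrd1 and Gclm. Peroxiredoxins reduce peroxides, sulfiredoxin restores peroxiredoxins that have been oxidized too far, and MSRB1, a selenoprotein, repairs oxidized methionine. TXNIP binds and restrains thioredoxin and slows glucose uptake.

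Ferritin is also controlled after transcription, through a hairpin in the 5′ UTR called the iron-responsive element, to which iron regulatory proteins bind when iron is scarce. These hairpins are shown because Fth1 and Ftl1, whose UMIs differed in direction between the libraries in neutrophils, share the element. UMIs do not measure control after transcription. The loop CAGTGN, preceded by a C and by 5 bases able to pair with the 5 bases after it, was looked for on the sense strand of the annotated 5′ UTRs in GENCODE M21, where 21 of 21087 genes (0.0996%) held it. Of the 9 genes it was in Fth1 and Ftl1, and of the other genes listed for iron or haem it was in Slc40a1 and Alas2. The hairpin of Fth1 lies at chr19:9982732-9982761 on the plus strand of mm10 and that of Ftl1 at chr7:45459778-45459807 on the minus strand, each inside the 5′ UTR of the transcripts Fth1-201 and Ftl1-201, and capitals mark the loop.
Fth1: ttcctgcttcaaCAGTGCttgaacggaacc
Ftl1: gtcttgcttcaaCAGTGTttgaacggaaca

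The promoters of Txnip and Srxn1 are shown because these genes had the patterns across cell types least like those of the other genes. Both are the 250 bases before the start in RefSeq on GRCm38.p6, the assembly that mm10 names. Of the 9 genes 8 had such an entry, and Hmox1, which had none, was not searched. Promoters were searched on both strands for the carbohydrate response element that MondoA binds, taken as CACGNG repeated after a gap of 5 bases, for TGANTCA, the AP-1 site, and for TGACNNNGC, a form of the core of the antioxidant response element. The first was in 15 of 32851 promoters (0.0457%), Txnip among them, where it begins 85 bases before the start. TGANTCA was in 6.75% of promoters and in Srxn1 alone of these genes, at 102 and 45 bases before the start. TGACNNNGC was in 10.2% and in Nfe2l2 alone. The Srxn1 match at 45 bases reads on as TGAGTCAGC, with G in place of the C of TGACNNNGC. Forms with that G were not searched for. In chr3:96557707-96557956 (Txnip) and chr2:152105274-152105523 (Srxn1), both on the plus strand, capitals mark the matches.
Txnip: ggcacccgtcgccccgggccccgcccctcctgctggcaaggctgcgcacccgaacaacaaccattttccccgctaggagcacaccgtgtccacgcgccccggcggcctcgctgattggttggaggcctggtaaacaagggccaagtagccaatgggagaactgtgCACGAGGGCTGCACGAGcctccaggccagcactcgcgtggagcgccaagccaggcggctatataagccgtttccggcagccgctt
Srxn1: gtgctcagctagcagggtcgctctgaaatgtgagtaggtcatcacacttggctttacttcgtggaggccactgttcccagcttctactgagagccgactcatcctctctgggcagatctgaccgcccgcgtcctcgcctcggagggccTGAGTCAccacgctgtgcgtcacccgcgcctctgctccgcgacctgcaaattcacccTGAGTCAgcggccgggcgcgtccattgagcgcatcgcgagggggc

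The WT library held 17123 cells and 92458623 unique molecular identifiers (UMIs, 1 per captured RNA molecule), and the APP/PS1 library 17645 cells and 84870864 UMIs, with 83 cell barcodes in common. After the cell filter 14564 and 15208 cells were kept, and they were clustered without the 9 genes and named from markers as X-like. Neutrophil-like cells numbered 5827 in WT and 6851 in APP/PS1, with a median of 2510 and 2614 UMIs per cell. A further 1670 and 2564 cells had the markers of neutrophils but were led by platelet genes, and 87 and 177 were immature granule-rich neutrophil-like cells. Although the labels call the samples neutrophils, classical and nonclassical monocyte-like, NK, T, B, plasma, erythroid, basophil and platelet-like cells were also found. Levels are UMIs summed over the cells of a cluster and library and scaled to a common library total (CPM, 1000000 UMIs). S100a8 and S100a9, which are neutrophil genes, took 158018 and 128308 CPM together in neutrophil-like cells, yet 11377 and 5775 CPM in B cell-like cells. In NK, T and B cell-like cells S100a8 stood at 4.84% to 12.6% of its neutrophil level, and the same share is given below for members in lymphocytes. The plasma cell-like cluster carried 78412 and 45461 CPM of both genes. 

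**Figure D1:**
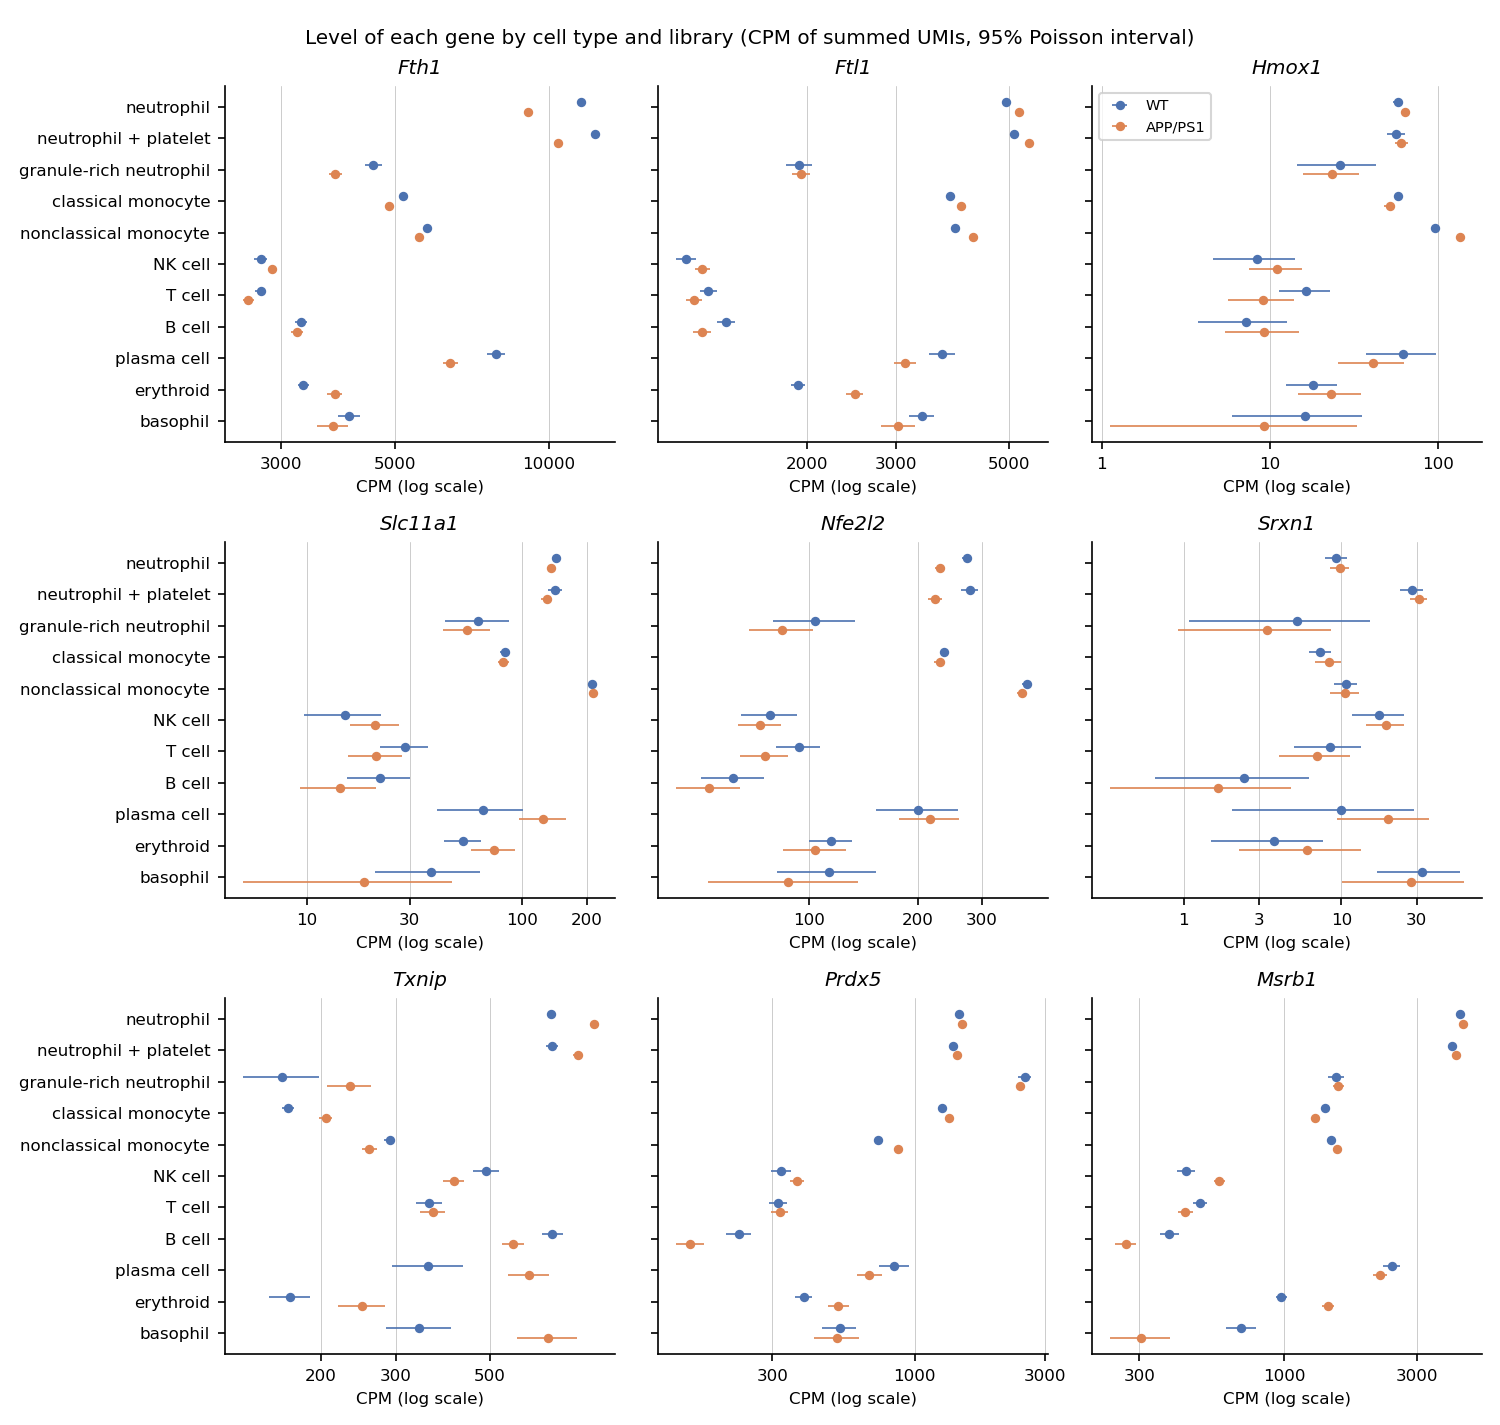
CPM (log scale) of each gene in 11 clusters for the WT library (blue) and the APP/PS1 library (orange), with bars for the 95% Poisson interval of the summed UMIs. Fth1 and Msrb1 lie farthest right in both large neutrophil clusters, Hmox1, Slc11a1 and Nfe2l2 in nonclassical monocyte-like cells, Prdx5 in granule-rich neutrophil-like cells, and Txnip is as high in B cell-like as in neutrophil-like cells in WT.

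Ferritin took up 1.65% of all UMIs of WT neutrophil-like cells and 1.44% of those of APP/PS1 (both chains together). Fth1 (ENSMUSG00000024661, chromosome 19 from 9980598 to 9985098, plus strand) stood at 11531 CPM in neutrophil-like cells of WT mice and at 9106 CPM in those of APP/PS1 mice. It was higher still in the neutrophil cluster led by platelet genes, at 12321 and 10424 CPM, and, after the plasma cell-like cluster (7888 and 6419 CPM), reached 5781 and 5582 CPM in nonclassical and 5201 and 4876 CPM in classical monocyte-like cells. Lymphocytes stood at the low end, between 2590 CPM in T cell-like cells of APP/PS1 and 3278 CPM in B cell-like cells of WT. In the WT order of 11 clusters the intervals of neighbours overlapped only between erythroid and B cell-like cells and between NK and T cell-like cells.

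A CPM is a share of a cell's RNA and not an amount. Per cell, Fth1 had 32.2 UMIs in WT neutrophil-like cells against 42.9 in WT classical monocyte-like cells, whose median depth was 8183 UMIs. The APP/PS1 library gave 26.6 and 37.0 UMIs per cell. The order of these clusters by Fth1 UMIs per cell was thus the reverse of the order by CPM. In lymphocytes Fth1 stood at 23.7% to 35.4% of the neutrophil CPM of the same library, above the share of S100a8 in each of the 3 types.

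Ftl1 (ENSMUSG00000050708, chromosome 7 from 45457944 to 45459884, minus strand) showed the opposite direction in neutrophil-like cells, with 4936 CPM for WT and 5245 CPM for APP/PS1. In monocytes it stood nearer to the neutrophil level than Fth1 did, with 3923 and 4241 CPM in nonclassical and 3834 and 4019 CPM in classical monocyte-like cells. It had between 1158 and 1388 CPM in lymphocytes, 22.9% to 28.1% of the neutrophil level. Reads of the pseudogene Ftl1-ps1 can share sequence with Ftl1, and Ftl1-ps1 had 0.972% and 0.934% as many UMIs as Ftl1 in neutrophil-like cells.

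The share of the heavy chain differed both between cell types and between the libraries. In WT neutrophil-like cells there were 2.34 Fth1 UMIs for each Ftl1 UMI (2.32 to 2.36), and in APP/PS1 there were 1.74 (1.72 to 1.75). The neutrophil cluster led by platelet genes had 2.41 and 1.91, and the immature granule-rich one 2.35 and 1.96. Classical monocyte-like cells had 1.36 and 1.21 and nonclassical ones 1.47 and 1.32, so monocytes lay under neutrophils in each library. In NK cell-like cells (2.37 and 2.32) and T cell-like cells (2.14 and 2.16) the 2 libraries overlapped. B cell-like cells went the other way, with 2.36 (2.25 to 2.48) in WT and 2.58 (2.46 to 2.71) in APP/PS1. These intervals overlapped only at their ends, which does not show that the ratios are equal. The ratio was lower in APP/PS1 in 8 of 10 clusters of at least 50 cells in each library, and in 6 of them the intervals did not overlap. The ratio does not depend on library size. It counts UMIs near the 3′ end of 2 different genes and so compares cells and libraries, not amounts of the chains.

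**Figure D2:**
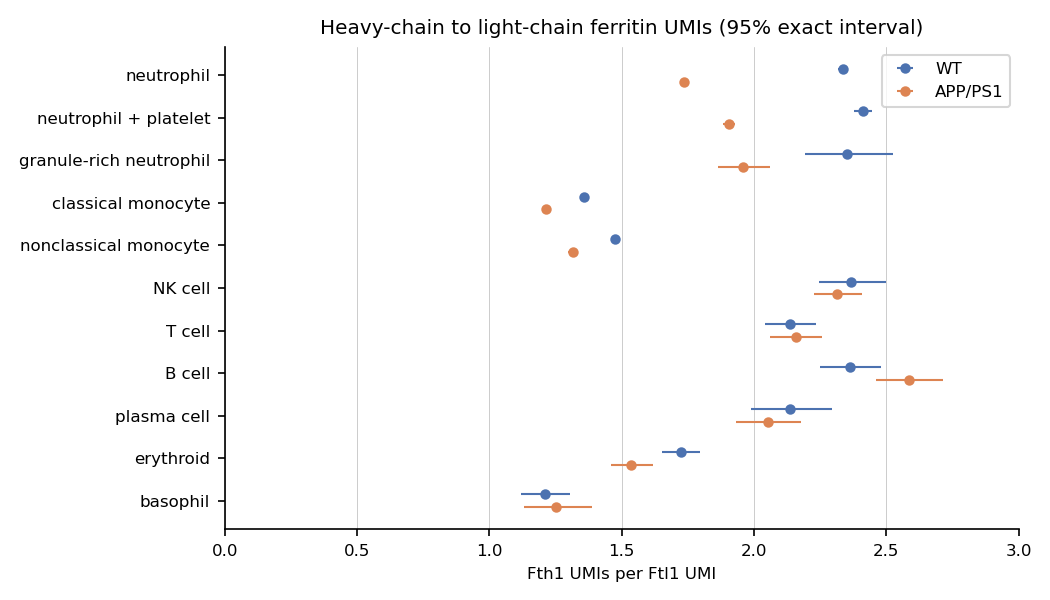
Fth1 UMIs per Ftl1 UMI (horizontal axis, starting at 0) by cluster in WT (blue) and APP/PS1 (orange) with 95% exact intervals. The 3 neutrophil clusters lie near 2.4 in WT and under 2 in APP/PS1, while NK and T cell-like cells lie at about the same place in both libraries.

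Slc11a1 (ENSMUSG00000026177, chromosome 1 from 74375195 to 74386062, plus strand), which moves iron out of the phagosome, was highest in nonclassical monocyte-like cells, at 212 CPM (WT) and 214 CPM (APP/PS1). Neutrophil-like cells had 143 and 136 CPM and classical monocyte-like cells 83.1 and 81.9 CPM, and none of these 3 clusters differed between the libraries beyond counting error. Lymphocytes had 14.2 to 28.6 CPM, which is 10.4% to 19.9% of the neutrophil level, beside 4.84% to 12.6% for S100a8.

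Hmox1 (ENSMUSG00000005413, chromosome 8 from 75093621 to 75100589, plus strand) was also highest in nonclassical monocyte-like cells, with 97.0 CPM in WT, where the interval overlapped that of the few plasma cell-like cells, and 136 CPM in APP/PS1. Neutrophil-like cells had 57.8 and 63.9 CPM and classical monocyte-like cells 58.2 and 51.8 CPM. NK, T and B cell-like cells each held between 12 and 35 UMIs in a library, which gives 7.27 to 16.4 CPM, 12.6% to 28.4% of the neutrophil level. Hmox1 was uneven between the cells of both monocyte clusters. With each cell thinned to 1000 UMIs, its mean in nonclassical cells was 0.0954 UMIs with an SD of 0.547 in WT and 0.154 with an SD of 0.790 in APP/PS1, and in classical monocyte-like cells 0.0539 with an SD of 0.321 in WT and 0.055 with an SD of 0.316 in APP/PS1. WT neutrophil-like cells had a mean of 0.0608 with an SD of 0.256. At that depth 6.41% of WT and 8.88% of APP/PS1 nonclassical monocyte-like cells had a Hmox1 UMI, and 21.8% and 26.2% had one at full depth. Set beside these as a background, B cell-like cells, which also carry neutrophil RNA, had a Hmox1 UMI in 3.95% and 4.89% of cells at full depth, with a median of 5004.5 and 5875 UMIs per cell against 4276 and 4464 in nonclassical monocyte-like cells.

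Nfe2l2 (ENSMUSG00000015839, chromosome 2 from 75675513 to 75704641, minus strand) was also highest in nonclassical monocyte-like cells, with 399 and 387 CPM. Neutrophil-like cells reached 273 CPM (WT) and 230 CPM (APP/PS1), and classical monocyte-like cells 236 and 230 CPM. Neutrophils of WT thus lay above classical monocytes beyond counting error, and those of APP/PS1 did not. Lymphocytes had 53.0 to 93.7 CPM, 22.7% to 34.3% of the neutrophil level.

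Srxn1 (ENSMUSG00000032802, chromosome 2 from 152105516 to 152111376, plus strand) was the scarcest of the genes in neutrophil-like cells and stood higher in clusters with platelet genes. Neutrophil-like cells had 9.27 CPM (151 UMIs) in WT and 9.74 CPM (195 UMIs) in APP/PS1. The neutrophil cluster led by platelet genes had 27.8 and 31.0 CPM, and its intervals did not overlap those of neutrophil-like cells in either library. Platelet-like clusters of 16 cells in each library had 313 CPM (135 to 617) and 318 CPM (137 to 626), on 8 UMIs each. Basophil-like cells had 32.5 and 27.6 CPM, with intervals that overlapped those of the platelet-led neutrophils. NK cell-like cells had 17.4 and 19.0 CPM, and B cell-like cells 2.42 and 1.64 CPM on 4 and 3 UMIs, too few to set against S100a8. The counts do not tell neutrophils that carry platelets from droplets that hold both, and with called doublets removed the platelet-led neutrophil cluster still had 1692 and 2575 cells.

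Prdx5 (ENSMUSG00000024953, chromosome 19 from 6906697 to 6910106, minus strand) was the only member that was highest in immature granule-rich neutrophil-like cells, at 2532 CPM (WT) and 2437 CPM (APP/PS1). Neutrophil-like cells had 1452 and 1488 CPM, classical monocyte-like cells 1259 and 1342 CPM and nonclassical ones 731 and 869 CPM. Per cell the granule-rich cluster had 16.7 and 16.3 UMIs, classical monocyte-like cells 10.4 and 10.2, and neutrophil-like cells 4.06 and 4.35. Lymphocytes had 10.1% to 24.9% of the neutrophil CPM.

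Msrb1 (ENSMUSG00000075705, chromosome 17 from 24736642 to 24742778, plus strand) was highest in neutrophil-like cells. Its level was 4288 CPM (WT) and 4428 CPM (APP/PS1), against 1475 and 1547 CPM in nonclassical monocyte-like cells and 1543 and 1564 CPM in immature granule-rich ones. At 1000 UMIs per cell a Msrb1 UMI was found in 97.8% and 98.0% of neutrophil-like cells. In NK, T and B cell-like cells Msrb1 stood at 6.05% to 13.2% of the neutrophil level, a range close to the 4.84% to 12.6% of S100a8.

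Txnip (ENSMUSG00000038393, chromosome 3 from 96557957 to 96561883, plus strand) had another order. In WT it had 703 CPM in B cell-like cells, 696 CPM in neutrophil-like cells and 701 CPM in the neutrophil cluster led by platelet genes, whose intervals overlapped. NK cell-like cells followed at 490 CPM, T cell-like cells at 360 CPM and nonclassical monocyte-like cells at 290 CPM, and erythroid cells (169 CPM), classical monocyte-like cells (167 CPM) and immature granule-rich neutrophil-like cells (162 CPM) came last with overlapping intervals. In APP/PS1 neutrophil-like cells stood alone at the top with 883 CPM, and B cell-like cells had 567 CPM. Lymphocytes had 41.6% to 101% of the neutrophil level. Over 20 sums (10 cell types in 2 libraries) the Pearson correlation of log2(CPM + 1) of Txnip with the other 8 genes lay between -0.18 and 0.41, whereas that of Hmox1 with Nfe2l2 was 0.96 and that of Fth1 with Ftl1 0.92. These sums share libraries, depth and free RNA and are given as a description.

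Of the 9389 other genes with 200 UMIs in all and a highest level of at least 10 CPM, those whose pattern over the same 20 sums was nearest to a member's were Mcl1 (r = 0.97) for Fth1, Lrrc25 (0.98) for Ftl1, Sat1 (0.97) for Hmox1, Fgr (0.98) for Slc11a1, Gpr35 (0.98) for Nfe2l2 and Cd300lb (0.99) for Msrb1. Prdx5 was nearest to Pgd (0.96), which makes NADPH in the pentose phosphate pathway. Txnip was nearest to Jund (0.92) and Srxn1 to Pttg1ip (0.87), the lowest values among the 9.

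The comparison between the libraries asks which of these genes differed in blood cells of APP/PS1 mice. It is the log2 ratio of CPM, APP/PS1 over WT, for genes counted with 200 UMIs or more in either library, set against a limit of 0.5 in either direction. In neutrophil-like cells 8 of the 9 genes had enough UMIs and 0 were past the limit, where 5.41% of all 5341 genes were. The members' median was 0.04 and that of all genes 0.06. The gene left out was Srxn1, at 9.27 and 9.74 CPM.

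Fth1 was lower in APP/PS1 neutrophil-like cells with a log2 ratio of -0.34 (-0.35 to -0.33). Thinned to 1000 UMIs per cell, the median was 11 Fth1 UMIs in WT and 8 in APP/PS1, with an SD between cells of 6.69 and 5.69. Among all genes tested 13.3% had a larger ratio in absolute size. Ftl1 was 6.25% higher, with a log2 ratio of 0.09 (0.07 to 0.10).

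Txnip was 26.9% higher in APP/PS1 neutrophil-like cells, a log2 ratio of 0.34 (0.31 to 0.38). A Txnip UMI was found in 45.8% of WT and 53.7% of APP/PS1 cells at 1000 UMIs each. Nfe2l2 was lower, from 273 to 230 CPM (log2 ratio -0.25, -0.31 to -0.19). Hmox1 had a log2 ratio of 0.14 (0.02 to 0.27), Prdx5 0.04 (0.01 to 0.06) and Msrb1 0.05 (0.03 to 0.06). The interval of Slc11a1 held 0 (-0.07, -0.15 to 0.01). With abundant gene classes left out of the total, Prdx5 and Msrb1 turned to -0.02 and -0.01, and Prdx5 also with TMM library sizes (-0.01), so the direction of these 2 depended on the scaling.

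**Figure D3:**
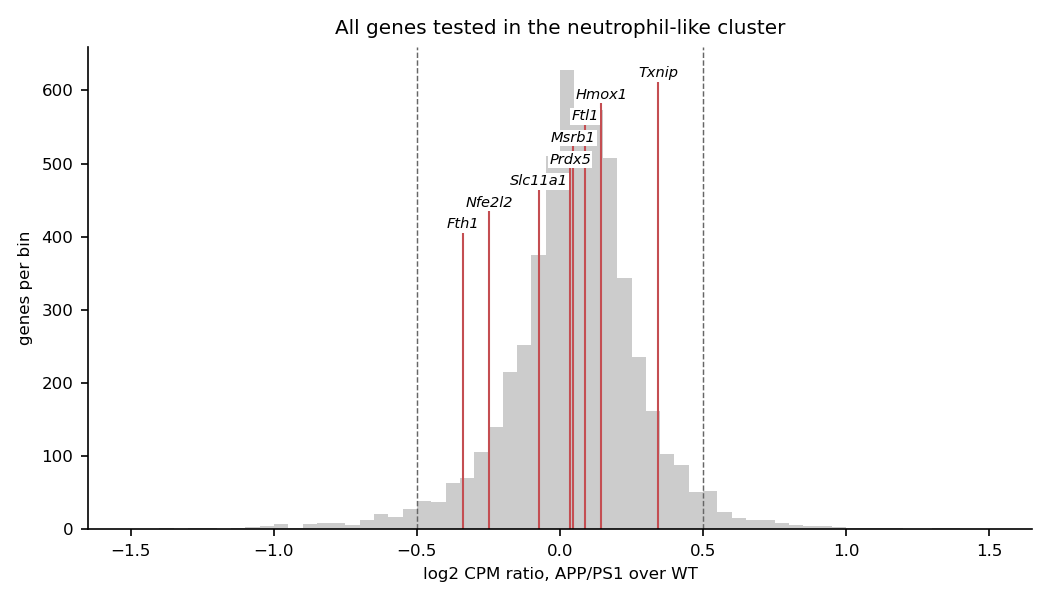
Number of genes (vertical axis) by log2 CPM ratio, APP/PS1 over WT, for the 5341 genes tested in neutrophil-like cells in bins of 0.05, with red lines at the 8 members that had enough UMIs and dashed lines at the limit of 0.5. Fth1 (-0.34) and Nfe2l2 (-0.25) lie in the left tail and Txnip (0.34) in the right tail, all inside the limit, and 9 genes below and 6 above the plotted range are not drawn.

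The neutrophil cluster led by platelet genes also had 0 of 9 members past the limit, beside 4.89% of genes. Fth1 had -0.24 (-0.26 to -0.23), Nfe2l2 -0.32 (-0.42 to -0.22) and Txnip 0.20 (0.14 to 0.26). The intervals of Fth1 and Txnip did not overlap those of neutrophil-like cells and lay nearer to 0, and that of Hmox1 (0.10, -0.11 to 0.32) held 0. Srxn1, which had enough UMIs only there, had a log2 ratio of 0.16 (-0.15 to 0.47), which was -0.07 with percentile limits taken over both libraries. In immature granule-rich neutrophil-like cells (87 and 177 cells) Fth1 had -0.25 and Txnip, from 162 to 233 CPM, 0.53 (0.19 to 0.88). Txnip was thus the 1 of 5 members past the limit there, where 5.5% of genes were past it and 2.99% on the higher side. It was no longer past the limit under 3 of 9 alternatives (lowest 0.47). When the neutrophils were clustered again, as given below, Txnip had 0.05 (-0.20 to 0.29) in the cluster led by granule genes.

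In monocytes Fth1 differed less. Its log2 ratio was -0.09 (-0.11 to -0.08) in classical and -0.05 (-0.07 to -0.03) in nonclassical monocyte-like cells, where it turned sign under 4 of 9 alternatives (-0.07 to 0.04), and 0 of 8 members passed the limit in either, where 3.15% and 2.73% of genes did. Hmox1 in nonclassical monocyte-like cells came nearest, from 97.0 to 136 CPM, a log2 ratio of 0.49 (0.37 to 0.60) that ran from 0.46 to 0.59 over 9 alternatives and passed the limit in 3 of them. In classical monocyte-like cells Hmox1 had -0.17 (-0.31 to -0.03). Txnip was higher in classical (0.29, 0.22 to 0.36) and lower in nonclassical monocyte-like cells (-0.16, -0.23 to -0.09). Prdx5 was 0.25 higher on the log2 scale in nonclassical cells (0.21 to 0.29).

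Among lymphocytes, 0 of 6 members passed the limit in NK cell-like cells (2.22% of genes) and 0 of 6 in T cell-like cells (5.48%). Txnip was lower in NK (-0.25, -0.38 to -0.12) and B cell-like cells (-0.31, -0.43 to -0.19) and had 0.03 (-0.11 to 0.17) in T cell-like cells. In B cell-like cells 2 of 5 members were past the limit on the lower side, where 6.96% of genes were past it in all and 5.04% on that side. These were Prdx5, from 226 to 150 CPM (-0.59, -0.82 to -0.36), and Msrb1, from 385 to 268 CPM (-0.52, -0.70 to -0.35). S100a8 and S100a9 moved with them, from 11377 to 5775 CPM, and their part in the result was not tested. With no limits on UMIs and genes per cell the ratios were -0.09 for Prdx5 and -0.08 for Msrb1.

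Of the remaining clusters, plasma cell-like cells had Txnip past the limit as 1 of 5 members (15.8% of genes were past it, 8.91% on the higher side), from 358 to 617 CPM (0.79, 0.47 to 1.11). S100a8 and S100a9 went from 78412 to 45461 CPM in that cluster, and their part in its ratios was not tested. Erythroid cells had 2 of 6 on the higher side, beside 15.4% of genes (19.3% in either direction): Txnip, from 169 to 250 CPM (0.57, 0.32 to 0.81), and Msrb1, from 975 to 1439 CPM (0.56, 0.46 to 0.66). In erythroid cells S100a8 and S100a9 were also higher, at 30590 and 36232 CPM, the median gene had a ratio of 0.20, and their part in the result was not tested. With percentile limits taken over both libraries together the erythroid ratios were 0.16 for Txnip and 0.10 for Msrb1. Neither was past the limit with TMM library sizes (0.31 and 0.30) or with abundant gene classes left out of the total (0.28 and 0.28). Basophil-like cells (72 and 43 cells) had too few cells to be counted, and Msrb1 had 698 and 303 CPM there.

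**Figure D4:**
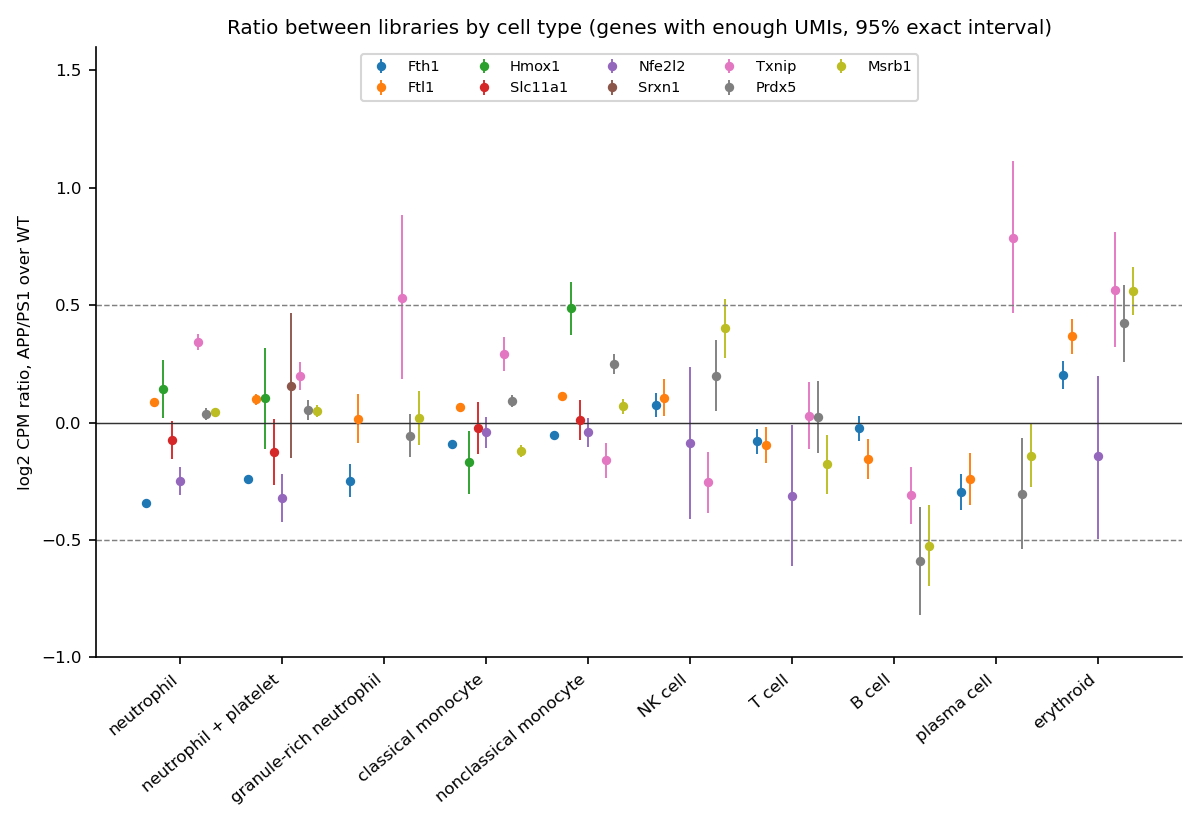
Log2 CPM ratio, APP/PS1 over WT, of each gene that reached 200 UMIs in either library, by cluster, with 95% exact intervals and dashed lines at the limit of 0.5. Fth1 (dark blue) is below 0 in the 3 neutrophil clusters, and the points past the limit belong to Txnip, Prdx5 and Msrb1 in small clusters.

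The cells of the 3 neutrophil clusters were clustered again to compare the libraries within kinds of neutrophils. The 6 clusters were led by Stfa2, Stfa1 and Retnlg (cluster 0), Clec4n and Dusp2 (cluster 1), platelet genes (cluster 2), Ifit2 and Ifit3, which interferon induces (cluster 3), the granule genes Camp, Ngp and Ltf (cluster 4), and mitochondrial genes (cluster 5, with 63 and 78 cells).

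Fth1 was lower in APP/PS1 in 6 of 6 clusters, each beyond counting error. The log2 ratio was -0.30 in cluster 0, -0.34 in cluster 1 and -0.24 in cluster 2. It was larger in the interferon cluster, from 11188 to 7691 CPM (-0.54), in the granule cluster, from 6257 to 4349 CPM (-0.52), and in the mitochondrial cluster (-0.55). The interval of each of these 3 did not overlap those of clusters 0, 1 and 2. The granule cluster held 149 and 220 cells, against 87 and 177 immature granule-rich neutrophil-like cells. In those Fth1 had 4541 and 3826 CPM and -0.25 (-0.32 to -0.18), so the size of the difference depended on the clustering. The interferon cluster held 468 and 554 cells, and 967 and 1638 without anchors between libraries. Its ratio under other clusterings is not given. Within these clusters neither the share of all genes past 0.5 nor the share with an interval beside 0 was counted. The 6 clusters divide the same 2 libraries and are not replicates of each other. The Fth1 to Ftl1 ratio of UMIs was lower in APP/PS1 in all 6 clusters, from 2.30 to 1.59 in the interferon cluster and from 2.40 to 1.90 in the platelet cluster.

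Nfe2l2 was also lower in 6 of 6 clusters, in 5 of them beyond counting error. Cluster 1 had the highest level in both libraries, 327 CPM (WT) and 262 CPM (APP/PS1), and the granule cluster the lowest, at 129 and 83.9 CPM. Txnip was higher in 6 of 6 clusters, in 5 beyond counting error, with the highest APP/PS1 level in cluster 1, where it went from 762 to 1022 CPM (log2 ratio 0.42, 0.38 to 0.47). The small mitochondrial cluster had the largest ratio, from 635 to 978 CPM (0.62, 0.29 to 0.96), and its APP/PS1 interval overlapped that of cluster 1. In the granule cluster Txnip had 263 and 271 CPM and a ratio of 0.05 (-0.20 to 0.29). With all variable features kept, Txnip was lower in APP/PS1 in 1 of 6 clusters.

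Slc11a1 was lower in 6 of 6 clusters but beyond counting error only in the interferon cluster, from 157 to 112 CPM (-0.49, -0.78 to -0.20). Prdx5 was highest in the granule cluster, at 2361 and 2381 CPM, and Msrb1 lowest there, at 2023 and 1708 CPM. Srxn1 had 27.4 and 32.7 CPM in the platelet cluster, where it was supported by 130 and 249 UMIs.

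**Figure D5:**
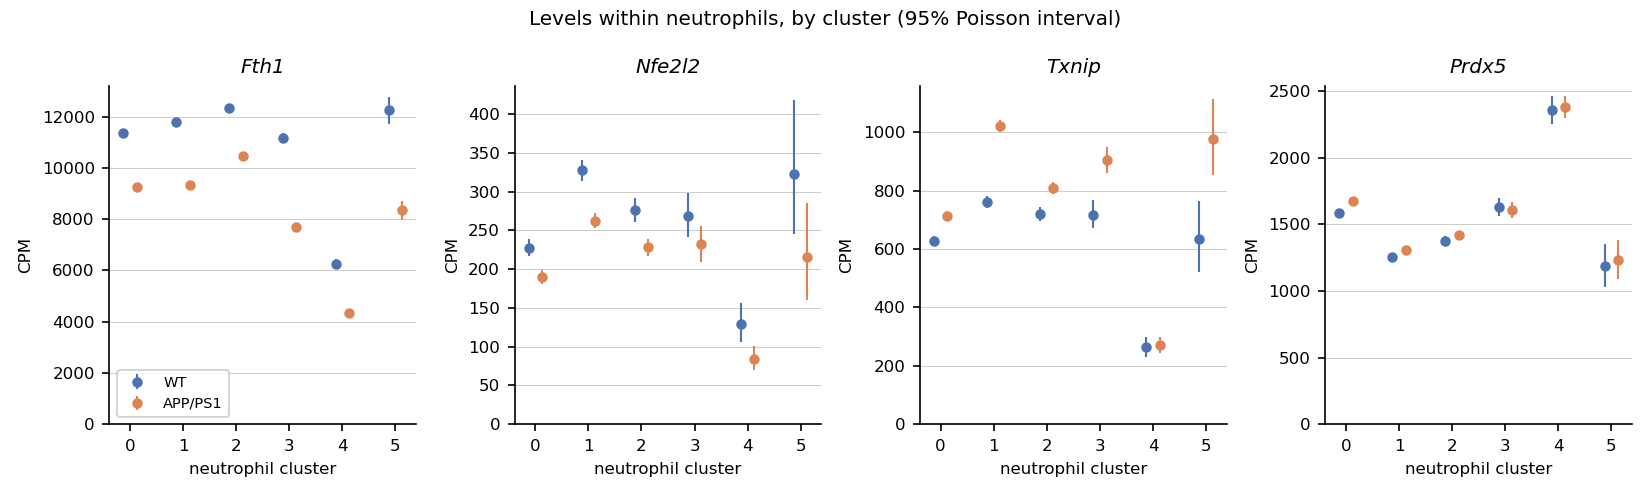
CPM (vertical axis, from 0) of Fth1, Nfe2l2, Txnip and Prdx5 in 6 clusters of neutrophils for WT (blue) and APP/PS1 (orange), with 95% Poisson intervals. Fth1 and Nfe2l2 are lower and Txnip higher in APP/PS1 in each cluster, and cluster 4, led by granule genes, has the lowest Fth1, Nfe2l2 and Txnip and the highest Prdx5.

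The other genes of these pathways were read from 6 lists in neutrophil-like cells, beside 2.86% of all genes past the limit on the higher side and 2.55% on the lower side. Of 21 genes of iron uptake, storage and export, 10 had enough UMIs and 0 passed the limit (median log2 ratio 0.06). The largest ratios in these cells were those of Trf (transferrin), 73.5 to 88.0 CPM (0.26, 0.15 to 0.37), and Fbxl5, an iron sensor that marks iron regulatory protein 2 for degradation, 433 to 367 CPM (-0.24, -0.29 to -0.19). Trf differed more in other clusters, with 65.5 and 300 CPM in nonclassical (2.20, 2.09 to 2.31) and 136 and 306 CPM in classical monocyte-like cells (1.17, 1.10 to 1.24). On 14 and 65 UMIs it had 1.17 (0.32 to 2.12) in immature granule-rich neutrophil-like cells, and on 46 and 54 UMIs 1.16 (0.57 to 1.76) in erythroid cells. Slc40a1, the iron exporter whose 5′ UTR also holds the hairpin, had 391 and 421 CPM (0.11, 0.06 to 0.15).

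Of 21 genes for haem, 11 had enough UMIs, 1 was past the limit on the lower side and the median was 0.04. That gene was Hebp1, a haem-binding protein, with 304 UMIs (18.7 CPM) in WT and 2 UMIs (0.0999 CPM) in APP/PS1 neutrophil-like cells, a log2 ratio of -7.55 (-10.6 to -5.68). The same held in classical monocyte-like cells, with 988 and 7 UMIs, and over all barcodes of the libraries, with 2202 and 47 UMIs. Each genotype is 1 pool, so another difference between the pools at this gene cannot be told apart from genotype. The next largest was Pgrmc1, a membrane haem-binding protein, at 16.5 and 21.0 CPM (0.34, 0.12 to 0.57).

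Of 22 partners and targets of NRF2, 16 had enough UMIs, and 1 was past the limit on the lower side (median -0.01). This was Txnrd1, thioredoxin reductase, from 50.4 to 32.4 CPM (-0.64, -0.79 to -0.49). Mafg, which pairs with NRF2 on DNA, had 73.9 and 65.4 CPM (-0.18, -0.29 to -0.06). Txnrd1 was likewise the 1 gene past the limit among 11 of 17 genes for thioredoxin, peroxiredoxin and methionine sulfoxide reductase (median -0.01), where Selenos, a selenoprotein of the endoplasmic reticulum, had 16.8 and 21.8 CPM (0.38, 0.15 to 0.60). In the neutrophil cluster led by platelet genes Txnrd1 had -0.85 (-1.12 to -0.58), in classical monocyte-like cells -0.38 (-0.54 to -0.21) and in NK cell-like cells 0.00 (-0.28 to 0.28). In immature granule-rich neutrophil-like cells it went the other way, with 7 and 61 UMIs, 12.2 and 51.4 CPM (2.08, 0.95 to 3.45). Txn1, thioredoxin itself, had 2792 and 3277 CPM (0.23, 0.21 to 0.25).

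Of 15 genes for superoxide dismutase, catalase and glutathione, 10 had enough UMIs and 2 were past the limit on the higher side, while the median was -0.04. These were Gss, glutathione synthetase, from 14.1 to 23.4 CPM (0.74, 0.50 to 0.97), and Sod2, the mitochondrial superoxide dismutase, from 26.7 to 39.8 CPM (0.57, 0.40 to 0.75). In the neutrophil cluster led by platelet genes they had 0.67 and 0.60. Gss had 1.01 (0.37 to 1.69) in T cell-like cells on 30 and 65 UMIs. In nonclassical monocyte-like cells Gss had 0.28 and Sod2 0.24, and in classical ones -0.15 (-0.39 to 0.08) and 0.11 (0.01 to 0.20). The last list held 10 genes: alpha-arrestins, MondoA and its partners, and also Ddit4, Klf2 and Btg1, which are neither. Of these 10 genes 7 had enough UMIs and 0 passed the limit (median -0.02). Klf2, a transcription factor outside both families, came nearest with 2352 and 3302 CPM (0.49, 0.47 to 0.51). Arrdc4, the closest relative of Txnip, had 123 and 106 CPM (-0.22, -0.30 to -0.13), opposite to Txnip.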

How the data were processed

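For each library the authors deposited a matrix of raw UMI counts, made with Cell Ranger 5.0.0 on mm10 from 10x Genomics 3′ v3 libraries, with no normalization. The 9 genes and the lists were chosen with earlier results of these data known. Following the methods of the study, a cell was kept if its gene number and UMI total both lay between percentiles 5 and 95 of its library and at most 10% of its UMIs were mitochondrial, and a gene if 3 or more cells had it. Kept cells were log-normalized to 10000 UMIs and clustered in Seurat 5.3.0 (R 4.3.3) on 2000 variable features without members or lists, 15 principal components and a resolution of 0.2. Clusters were named from marker lists. The rules for the cluster with neutrophil and platelet markers and for unnamed clusters led by epithelial genes were set after the clusters had been seen. Neutrophils were clustered again with anchors between libraries, also without genes differing by over 0.5 log2, at the lowest resolution that gave at least 6 clusters (0.3). Doublets called by Scrublet (scanpy 1.11.5) stayed in and were removed in an alternative, with the WT threshold for both libraries because the automatic one called 0% of APP/PS1 cells.

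There is 1 library per genotype, so no test was made. CPM of summed counts have exact Poisson intervals, ratios exact conditional intervals and shares Clopper-Pearson intervals (95% level, scipy 1.17.1), and all cover counting error only. PCR duplicates were already collapsed by UMI. On simulated counts of the neutrophil comparison, the interval covered the simulated ratio for 95.3% of 5272 genes. These counts were drawn from the Poisson model that the interval assumes. The value thus checks the calculation only, and not the spread between cells or mice. Genes named beside the 9 were, from each list, those past the limit and, where fewer than 2 were, the 2 largest ratios, and for each of the 9 the gene of highest correlation of the 3 found. Slc40a1 and Txn1 were named after their values were seen. Alternatives were other cell filters, doublet removal, other clusterings, TMM library sizes (edgeR 4.0.16), a total without haemoglobin, mitochondrial, ribosomal protein, S100a8 and S100a9 UMIs, the mean over cells, other UMI minimums, and, added after the data were seen, all neutrophil clusters together. Gene positions are those of GENCODE M21. No protein sequences were used here.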

Additional observations from a re-analysis of the deposited data

Results flagged for a closer look

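Differences between cell types in the direction of the ratio between libraries were looked for, and none of them was tested. For each gene the highest and lowest ratios were compared where both were past 0.25 with intervals beside 0. The differences are thus extremes by the way they were picked. The log2 ratio of Txnip was higher in plasma cell-like cells than in B cell-like cells by 1.09, that of Prdx5 higher in erythroid cells than in B cell-like cells by 1.01, and that of Msrb1 higher in erythroid cells than in B cell-like cells by 1.09. The ratio of Prdx5 was 0.42 in erythroid and -0.59 in B cell-like cells, and that of Msrb1 0.56 and -0.52. Over 9 alternatives Prdx5 ran from 0.07 to 0.90 in erythroid and from -0.59 to -0.09 in B cell-like cells. Msrb1 ran from 0.10 to 0.95 and from -0.53 to -0.08. S100a8 and S100a9 moved the same way as Prdx5 and Msrb1 in each of these clusters, up from 30590 to 36232 CPM in erythroid and down from 11377 to 5775 CPM in B cell-like cells. The 9 genes were measured with 1 library per genotype, so no sample could be set against others of its group.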

How the results depend on the processing

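No paired analysis was possible because there is 1 library per genotype, and for the same reason no replicate could be left out. In neutrophil-like cells 0 members were past the limit under any alternative, and the log2 ratio ran from -0.39 to -0.30 for Fth1, from -0.30 to -0.24 for Nfe2l2 and from 0.29 to 0.36 for Txnip over 10 alternatives. Fth1 UMIs per Ftl1 UMI ran from 2.29 to 2.36 in WT and from 1.73 to 1.79 in APP/PS1. With at least 50 UMIs in a library, 1 gene of the thioredoxin list was past the limit on the higher side. On the lower side it was 1 of the list with the alpha-arrestins, Ddit4, which is not an alpha-arrestin. With at least 500, 0 genes of the haem list were past it on the lower side, since Hebp1 has fewer, and 1 of the superoxide dismutase and glutathione list on the higher side. Of all log2 ratios under alternatives, 441 stayed within their counting interval and 123 did not, and of 66 pairs of gene and cluster 22 changed sign under some alternative, though none of those past the limit did. A further 5 pairs passed the limit only under an alternative: Prdx5 in plasma cell-like (to -0.70), T cell-like (to 0.52) and erythroid cells (to 0.90), Ftl1 in erythroid cells (to 0.66) and Hmox1 in nonclassical monocyte-like cells (to 0.59). Calls in B cell-like and granule-rich neutrophil-like cells depended on the cell filter, the doublets or the clustering, and those in erythroid cells on the cell filter and the scaling, and the cause was not tested. The separate neutrophil cluster led by platelet genes was not found with no percentile limits or 30 principal components, and a plasma cell-like cluster was not found in 4 settings, so these gave no value. Depth limits Srxn1 most, with 151 and 195 UMIs in neutrophil-like cells.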

Other observations

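Hebp1 had the lowest ratio between the libraries of all 5341 genes tested in neutrophil-like cells. In the neutrophil cluster led by platelet genes it had 96 UMIs in WT and 0 in APP/PS1, in nonclassical monocyte-like cells 159 and 3, and in erythroid cells 21 and 6. This was chosen after its values were seen, and its cause was not tested.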
